A study of Homo sapiens with 8 samples.

Results

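The genes described here are the regulators of the first gap phase of the cell cycle (G1) in MonoMac 6, an established human cell line of acute monocytic leukaemia: D cyclins (CCND1, CCND2, CCND3), their kinases CDK4 and CDK6, the kinase CDK2, the inhibitors CDKN1B, CDKN2C and CDKN2D, and the substrate RB1. They were chosen by name, 10 genes in all. The deposited table of 11530 genes held 8 of them, all 8 of which passed the filter on low values and were among the 11257 genes tested, and CCND1 and CCND2 were not analysed here. RNA was sequenced from 4 libraries of cells cultured for 24 h with 100 ng/mL APRIL, the cytokine that TNFSF13 encodes, and from 4 control libraries without it. Both groups had baseline cytokines in their medium, which the series text does not name. Treated cells stood in serum-free RPMI per the labels, which give 10% fetal bovine serum for routine culture and do not give the serum of the control cells. APRIL and a change of serum, if there was one, therefore cannot be told apart. The labels do not say whether the libraries of a group came from separate cultures, so a p-value measures no more than how far these libraries spread, and that spread may be technical.

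A cell passes from G1 into DNA synthesis once the retinoblastoma protein, product of RB1, has been phosphorylated. Cyclin D with CDK4 or CDK6 starts that phosphorylation and cyclin E with CDK2 continues it, and E2F factors released from the retinoblastoma protein switch on the genes of DNA synthesis. Inhibitors of the INK4 family, among them the products of CDKN2C (p18) and CDKN2D (p19), bind CDK4 and CDK6. The KIP family inhibitor p27, product of CDKN1B, blocks cyclin E with CDK2. In blood cells CDK6 and cyclin D3 are the forms best known for driving proliferation, and mitogens and serum are known regulators of D cyclins and of p27.

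Values are log2 expression after scaling by TMM (trimmed mean of M values), a factor that adjusts each library for its composition. They are compared between libraries within a gene and never between genes, since the deposited scale divides each gene by a number of its own. Each change is the APRIL mean less the control mean, in log2, with its standard error from limma, a linear model with a shared estimate of spread, fitted over all tested genes with 4 libraries per group. A gene was called at an adjusted p (Benjamini-Hochberg) under 0.05. The table headers do not number the libraries, so each is named by the position of its column (1 to 4) within its group, and values are listed in that order. Whole reads could be recovered from the values for 95.3% of genes and gave 895995 to 5151731 reads in APRIL libraries and 1332238 to 2860209 in control libraries, with the fewest in APRIL column 3. APRIL column 3 and control column 1 stood apart. They were the highest libraries for 33.6% and 26.3% of tested genes, and the lowest for 32.9% and 25.7%. Of 15 markers of a monocytic leukaemia line 14 were in the table, with a mean level of 5.20 to 5.57 in APRIL libraries and 5.01 to 5.28 in control libraries. Of these 14, 0 passed the test, 11 changes were positive and 3 negative, and their median was +0.18, or -0.05 with trends in transcript length and GC removed. Of the markers of other cells, 0 of 7 erythroid and megakaryocytic and 0 of 8 fibroblast, epithelial and endothelial genes were in the table, with 5 of 6 B cell and 2 of 8 T and NK cell genes. The T and NK cell genes CD8A and NKG7 had a mean level of 6.81 to 7.51 in APRIL libraries and 6.71 to 6.98 in control libraries, highest in APRIL column 3. NKG7, a granule protein gene given here after its values were seen, differed by +0.46 ± 0.25 (adjusted p = 0.409), or +0.0096 with the trends removed. CD8A differed by -0.003 ± 0.18 (adjusted p = 0.993). It stood at 2.83 in APRIL column 3, on 6 reads, below APRIL columns 2 (3.20) and 4 (3.05), so the high mean of column 3 came from NKG7. The part of these marker levels in the results was not tested.

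CCND3, CDK4 and the INK4 inhibitors CDKN2C and CDKN2D leaned higher with APRIL, by 1.22-fold to 1.30-fold, and CDK6 and RB1 leaned lower, at 0.820 and 0.756 of control. CDK2 and CDKN1B differed by 1.05-fold and 1.06-fold. The log2 changes of CDK6 (+0.04), CDKN2D (-0.14) and CDK2 (-0.02) turned in sign with the trends in length and GC removed. In bulk RNA a shift in the share of cells in a state and a shift in RNA per cell cannot be told apart. None of the 8 genes passed limma's adjusted threshold, where 0.0% of all tested genes did, and the smallest adjusted p among them was 0.400. At an unadjusted p under 0.05 there were 2 of the 8, CDK4 and CDKN2C, both higher, against 11.9% of all tested genes (6.25% higher and 5.69% lower). Voom on the recovered reads, a second limma fit that weights each value by its depth, also called 0 of the 8. It put 3 of the 8 at an unadjusted p under 0.05, and 1160 genes over all those it tested. Those tested were among the 10992 genes with recovered reads. In the first limma fit the count of 2 became 0 without APRIL column 3, APRIL column 4, control column 1, control column 2 or control column 3. Over the 8 genes 6 changes were positive and 2 negative with a median of +0.18 (5 positive and a median of +0.04 with the trends in length and GC removed), beside 49.3% positive and a median of -0.01 over all tested genes.

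**Figure D1:**
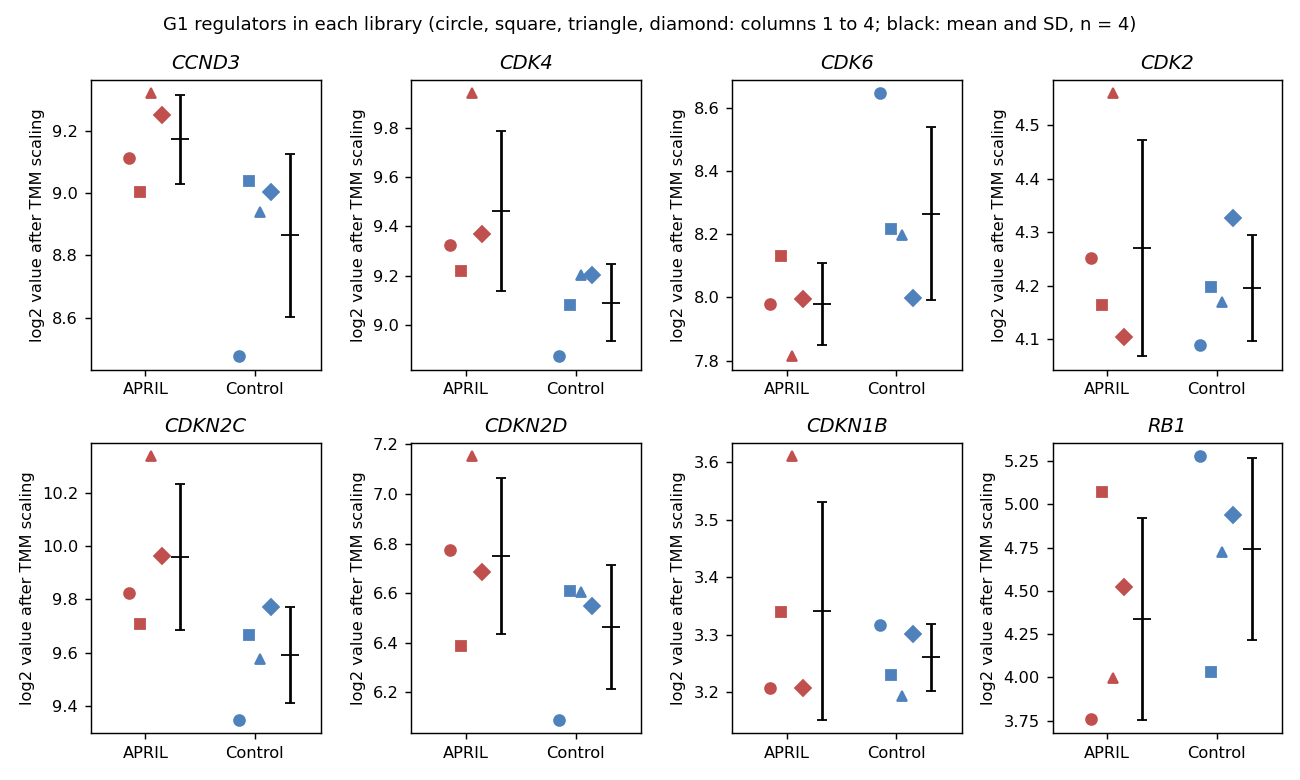
Log2 expression after TMM scaling (y axis, a separate range for each gene) of the 8 G1 regulators in 4 APRIL and 4 control libraries, with markers for columns 1 to 4 and the mean and SD in black. APRIL column 3 (triangle) is the highest library of 6 genes, control column 1 (circle) the lowest of 5, and CDK4 is the gene whose groups do not overlap.

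CCND3 encodes cyclin D3, the D cyclin subunit that gives CDK4 and CDK6 their activity. CCND3 measured 9.11, 9.005, 9.32 and 9.25 over the 4 APRIL libraries, against 8.48, 9.04, 8.94 and 9.01 over the 4 control libraries. Control column 1 lay far below the rest and APRIL column 2 lay just under control columns 2 and 4, so the groups overlapped. The change was +0.31 ± 0.15 with a 95% interval of -0.02 to 0.64 (adjusted p = 0.400). These values rest on 559 to 2852 reads per library. Without control column 1 the change was +0.18. An annotated gene on the opposite strand, AL513008.1, shares exon sequence with CCND3, as PMEL and AC025162.1 do with CDK2.

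CDK4 encodes a kinase that cyclin D activates. CDK4 measured 9.33, 9.22, 9.94 and 9.37 over the 4 APRIL libraries, against 8.87, 9.08, 9.20 and 9.20 over the 4 control libraries. All APRIL libraries lay above all control libraries, as they did for 3.62% of tested genes, although APRIL column 2 exceeded the highest control library by little. Means were 9.46 ± 0.33 for APRIL and 9.09 ± 0.16 for control (SD, n = 4 each), which makes a change of +0.37 ± 0.17 with a 95% interval of 0.0021 to 0.75 (adjusted p = 0.400). The reads behind it numbered 749, 1310, 340 and 859 over the 4 APRIL libraries, against 396, 304, 451 and 717 over the 4 control libraries. Without APRIL column 3 the change was +0.21. Exons of CDK4 overlap those of TSPAN31, a tetraspanin gene on the opposite strand, and the library kit does not mark strand, so reads of the shared stretch cannot be told apart. TSPAN31 itself stood at 7.06, 7.07, 8.07 and 7.11 over the 4 APRIL libraries, against 7.24, 7.23, 6.93 and 7.29 over the 4 control libraries. Its groups overlapped and its change was +0.16 ± 0.23 (adjusted p = 0.709).

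CDKN2C encodes p18, an INK4 inhibitor that binds CDK4 and CDK6. CDKN2C measured 9.82, 9.71, 10.34 and 9.96 over the 4 APRIL libraries, against 9.35, 9.67, 9.58 and 9.77 over the 4 control libraries. APRIL column 2 lay under control column 4, and the other 3 APRIL libraries lay above every control library. The change was +0.37 ± 0.16 with a 95% interval of 0.0211 to 0.71 (adjusted p = 0.400), on 379 to 1558 reads per library. Without APRIL column 3 the change was +0.24.

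CDK4 and CDKN2C had similar values in each library relative to their means. For CDKN2C minus CDK4, each taken relative to its own mean over the 8 libraries, the values were 0.0016, -0.0084, -0.10 and 0.10 over the 4 APRIL libraries, against -0.02, 0.09, -0.12 and 0.07 over the 4 control libraries. That difference averaged -0.0034 ± 0.08 (SD, n = 4) with APRIL and 0.0034 ± 0.10 in control, while each gene alone spanned 1.07 (CDK4) and 0.99 (CDKN2C) over the 8 libraries. By root mean square distance of these relative values over the 8 libraries, CDK4 and CDKN2C were each other's nearest among the 8 genes, at 0.0777. The libraries share their depth and composition trends, so this likeness is a description. Any tested gene could lie nearer still, and DYNLRB1, a dynein light chain, and CBR1, a carbonyl reductase, were the nearest to CDKN2C of all tested genes at 0.0339 and 0.0384. For CDK4 they were SNHG15, a long noncoding RNA gene that hosts a small nucleolar RNA, and FLOT1, a membrane raft protein, at 0.0396 and 0.0404. For CCND3 they were QSOX1, a sulfhydryl oxidase, and TECR, an enzyme of very long chain fatty acid elongation, at 0.0256 and 0.0348.

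The start regions of this pair are shown because they are the closest in pattern, 250 bases before each start that RefSeq gives on GRCh38.p14. CDK4 lies on the minus strand at chr12:57752311-57752560. CDKN2C lies on the plus strand with starts preceded by chr1:50960495-50960744, chr1:50968456-50968705 and chr1:50969995-50970244. The capitals mark the E-box CACGTG, a site of basic helix-loop-helix factors that reads the same on both strands.
CDK4: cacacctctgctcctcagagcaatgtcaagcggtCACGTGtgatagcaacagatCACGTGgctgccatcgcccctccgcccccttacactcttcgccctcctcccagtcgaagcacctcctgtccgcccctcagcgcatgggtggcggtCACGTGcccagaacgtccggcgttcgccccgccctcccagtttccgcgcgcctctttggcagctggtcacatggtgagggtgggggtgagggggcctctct
CDKN2C start A: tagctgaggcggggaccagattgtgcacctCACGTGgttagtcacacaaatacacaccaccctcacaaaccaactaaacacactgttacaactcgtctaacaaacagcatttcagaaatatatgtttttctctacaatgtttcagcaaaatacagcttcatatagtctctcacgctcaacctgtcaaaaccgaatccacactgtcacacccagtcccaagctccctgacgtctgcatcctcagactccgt
CDKN2C start B: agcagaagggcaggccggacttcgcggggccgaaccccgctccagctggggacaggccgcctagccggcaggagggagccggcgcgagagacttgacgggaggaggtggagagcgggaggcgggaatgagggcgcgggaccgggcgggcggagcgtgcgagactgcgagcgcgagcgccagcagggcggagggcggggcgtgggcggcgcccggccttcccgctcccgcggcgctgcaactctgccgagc
CDKN2C start C: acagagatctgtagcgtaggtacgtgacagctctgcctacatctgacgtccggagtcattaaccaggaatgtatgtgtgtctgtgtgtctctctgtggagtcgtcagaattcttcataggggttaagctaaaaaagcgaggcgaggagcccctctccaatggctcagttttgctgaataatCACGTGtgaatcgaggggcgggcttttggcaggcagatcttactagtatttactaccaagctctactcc

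The CDK4 window held 3 E-boxes, of which the nearest ended 96 bases before the start, and the CDKN2C windows A and C held 1 each. The E-box was found in 6.34% of 35116 promoter windows of the same length. The E2F motif, searched as TTTCCCGC, TTTCGCGC, TTTGCCGC and TTTGGCGC on both strands, was in 2.79% of all windows and in 0 of the 12 windows of the 7 genes for which the table held one (CDK2 had none). The RB1 window lies inside the gene and not at its main start, which was not searched, and no GENCODE 29 transcript begins at 1 of the CCND3 windows and 1 of the CDK6 windows. The GC box GGGCGG, on both strands, was in 8 of those 12 windows and in 42.6% of all windows. No E-box overlapped a GC box in these windows. A match is a description of letters, not of a bound site.

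CDK6, the kinase that shares cyclin D and the INK4 inhibitors with CDK4, had a change of the opposite sign. CDK6 measured 7.98, 8.13, 7.81 and 7.996 over the 4 APRIL libraries, against 8.65, 8.22, 8.20 and 7.999 over the 4 control libraries. Control column 1 was the highest library and APRIL column 3 the lowest, the reverse of CDK4, and control column 4 lay among the APRIL libraries. The change was -0.29 ± 0.15 with a 95% interval of -0.62 to 0.05 (adjusted p = 0.402), on 377 to 2990 reads per library, and -0.16 without control column 1. It was +0.04 ± 0.09 with the trends in length and GC removed. AC002454.1, a gene on the opposite strand whose exons overlap those of CDK6, differed by +0.23 ± 0.35 (adjusted p = 0.730), and strand was again not marked. CDK4 minus CDK6, each relative to its own mean, stood at 0.19, -0.07, 0.97 and 0.22 over the 4 APRIL libraries, against -0.93, -0.29, -0.15 and 0.05 over the 4 control libraries. The span of that balance came mostly from APRIL column 3 and control column 1, and APRIL column 2 lay below control column 4.

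CDK2, the kinase that acts later in G1 with cyclin E, differed little. CDK2 measured 4.25, 4.16, 4.56 and 4.10 over the 4 APRIL libraries, against 4.09, 4.20, 4.17 and 4.33 over the 4 control libraries. APRIL column 3 was again the highest library, and the groups overlapped. The change was +0.07 ± 0.14 with a 95% interval of -0.25 to 0.40 (adjusted p = 0.787), on 94 to 456 reads per library. Without APRIL column 3 it was -0.02.

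**Figure D2:**
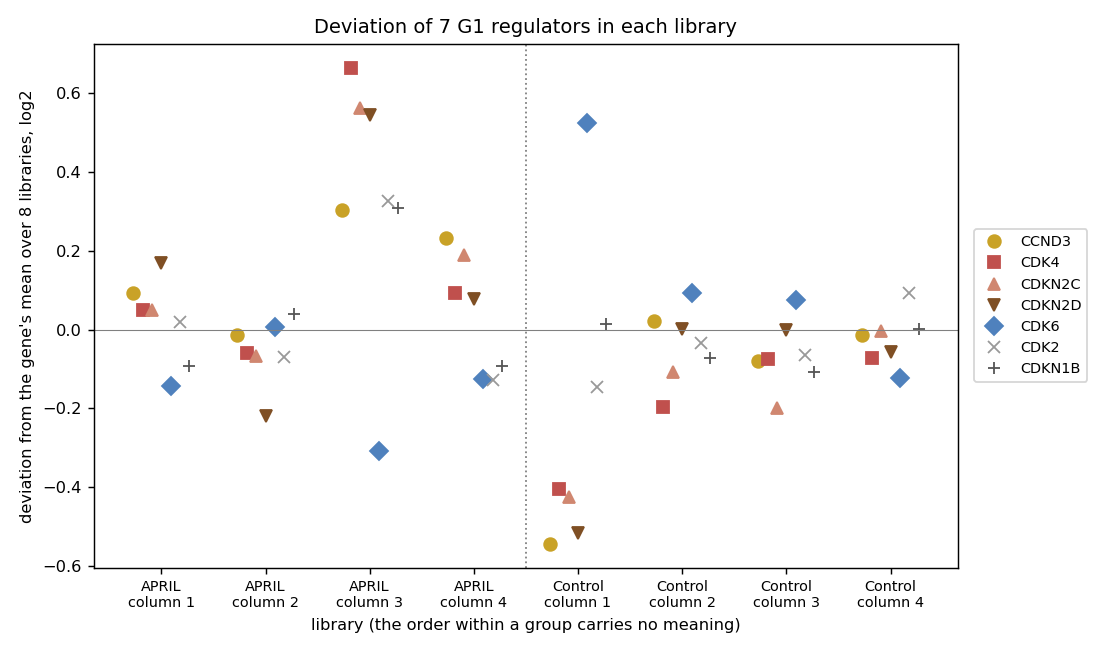
Deviation of 7 G1 regulators from their own mean over 8 libraries (y axis, log2) in each library (x axis, APRIL left of control), with RB1 left out for its wider spread. CDK4, CDKN2C and CDKN2D stand at 0.55 to 0.67 in APRIL column 3, where CDK6 is at -0.31, and CCND3, CDK4, CDKN2C and CDKN2D stand at -0.54 to -0.40 in control column 1, where CDK6 is at 0.53.

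CDKN2D encodes p19, the other INK4 inhibitor among the regulators chosen by name. CDKN2D measured 6.78, 6.39, 7.15 and 6.68 over the 4 APRIL libraries, against 6.09, 6.61, 6.60 and 6.55 over the 4 control libraries. The control libraries other than column 1 lay within a narrow band that APRIL column 2 fell below. The change was +0.29 ± 0.19 with a 95% interval of -0.13 to 0.70 (adjusted p = 0.446), or +0.15 without APRIL column 3 and +0.16 without control column 1. It was -0.14 ± 0.09 with the trends in length and GC removed. Depth was thin here, with 17 reads in APRIL column 3 (exact Poisson 95% interval 9.90 to 27.2) and 65 in APRIL column 2, against 19 reads in control column 2 and 40 in control column 4. Such intervals cover counting error only.

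CDKN1B encodes p27, the inhibitor that holds cyclin E with CDK2 in check and that accumulates in resting cells. CDKN1B measured 3.21, 3.34, 3.61 and 3.21 over the 4 APRIL libraries, against 3.32, 3.23, 3.19 and 3.30 over the 4 control libraries. The control libraries differed from each other by little (SD 0.06), and APRIL columns 2 and 3 lay above them all, column 3 by the most. The change was +0.08 ± 0.15 with a 95% interval of -0.25 to 0.41 (adjusted p = 0.774), on 80 to 424 reads per library. As a fold of control that interval runs from 0.843 to 1.33. Without APRIL column 3 the change was -0.0084. CDKN1B and CDK2 were each other's nearest among the 8 genes, at a root mean square distance of 0.0891.

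RB1 encodes the retinoblastoma protein, which restrains E2F until it is phosphorylated. RB1 measured 3.76, 5.07, 3.998 and 4.52 over the 4 APRIL libraries, against 5.28, 4.03, 4.73 and 4.94 over the 4 control libraries. Both groups were widely spread and overlapped. The change was -0.40 ± 0.32 with a 95% interval of -1.12 to 0.32 (adjusted p = 0.511), the widest interval of the 8 genes. There were 21, 100, 7 and 40 reads over the 4 APRIL libraries, against 44, 12, 27 and 50 over the 4 control libraries. The 7 reads of APRIL column 3 allow 2.81 to 14.4 by the exact Poisson 95% interval. Without APRIL column 1 the change was -0.21, and without APRIL column 2 it was -0.65.

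Among the 8 genes the sign of the change split by transcript length and base composition, and the part of either was not tested. In the table as a whole the libraries differ in trends with both, and the 2 genes that leaned lower had the longest transcripts and the lowest GC content: CDK6 at 11612 bases and 39.5% GC, and RB1 at 4793 bases and 37.3%, by the longest GENCODE 29 transcript. The 6 genes with positive changes had transcripts of 1422 (CDKN2D) to 2904 bases (CDKN2C) and 47.7% (CDKN1B) to 61.3% GC (CDKN2D). With each library's trend with length and GC removed over 10792 genes, the change of CDK6 became +0.04 ± 0.09 and that of CDKN2D became -0.14 ± 0.09, both turned in sign. In that fit CDK4 was at +0.18 ± 0.09, CDKN2C at +0.18 ± 0.11, CCND3 at +0.10 ± 0.08 and RB1 at -0.19 ± 0.28, with adjusted p of 0.571 to 0.769 for these 4. CDK4 then stood at 9.30, 9.28, 9.61 and 9.28 over the 4 APRIL libraries, against 9.12, 9.13, 9.26 and 9.22 over the 4 control libraries. Its groups still did not overlap, and those of the other 7 genes overlapped both before and after. With the trends removed CDK6 stood at 8.05, 8.03, 8.29 and 8.20 over the 4 APRIL libraries, against 8.21, 8.11, 8.10 and 7.999 over the 4 control libraries, with APRIL column 3 now its highest library. Without APRIL column 3 and control column 1 the changes of CCND3, CDK4 and CDKN2C were +0.13 ± 0.09, +0.14 ± 0.08 and +0.16 ± 0.09, that of CDK6 was -0.10 ± 0.09, and those of CDKN2D and RB1 were +0.03 ± 0.11 and -0.11 ± 0.33 (limma, smallest adjusted p = 0.667).

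**Figure D3:**
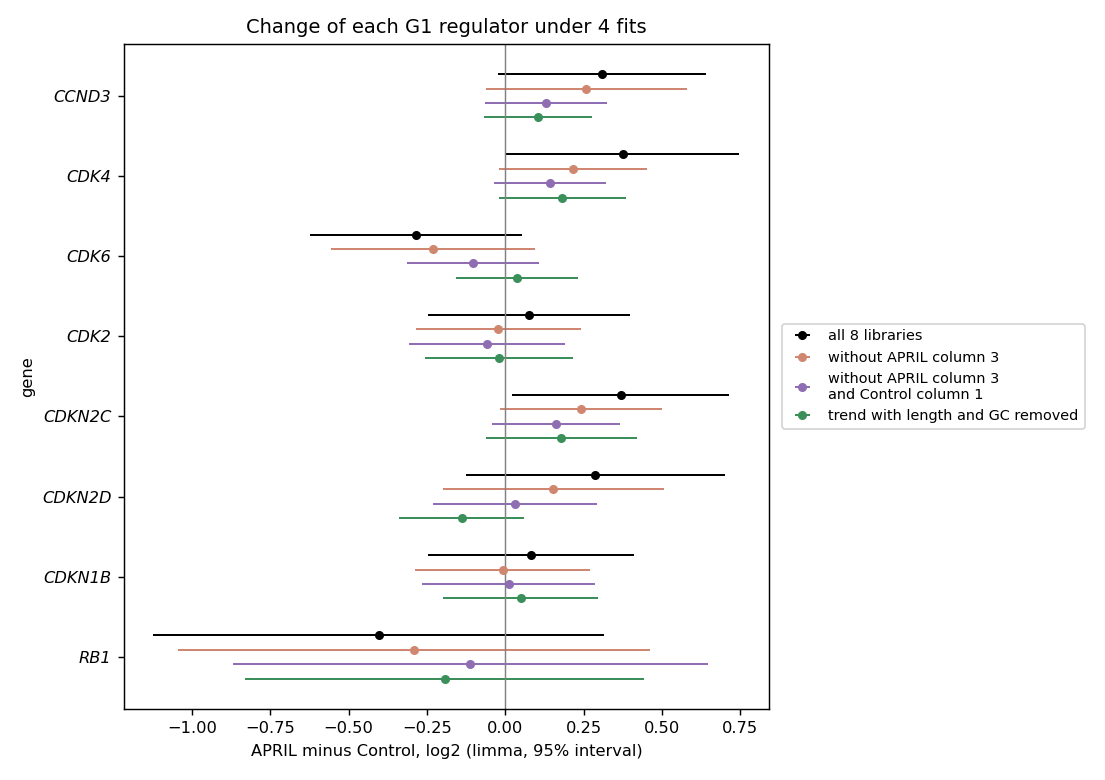
Change of the 8 G1 regulators (x axis, APRIL minus control, log2, with its 95% interval from limma) with all 8 libraries, without APRIL column 3, without APRIL column 3 and control column 1, and with the trend with length and GC removed. CDK4 and CDKN2C have intervals above 0 with all 8 libraries, and every interval includes 0 in the other 3 fits.

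The other genes of the pathway were taken from 5 lists. Of the other cyclins and kinases of G1 and S phase, 10 of 11 were tested, 0 passed and 0 had an unadjusted p under 0.05, with 6 positive changes and a median of +0.06, or -0.06 with the trends removed and -0.04 without APRIL column 3. CDC37, the chaperone partner that helps kinases such as CDK4 to fold, had the smallest p. It stood at 9.61 ± 0.16 with APRIL and 9.33 ± 0.24 in control (SD, n = 4), a change of +0.28 ± 0.14. That change was -0.09 with the trends removed and +0.17 without control column 1. It was larger, +0.34, without APRIL column 3, and +0.23 without APRIL column 3 and control column 1. The cyclin E genes differed in sign, CCNE2 at -0.25 ± 0.14 and CCNE1 at +0.15 ± 0.15, and CCNE1 was at -0.04 with the trends removed and +0.05 without APRIL column 3.

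Of the other CDK inhibitors 3 of 4 were tested, 0 passed and 0 had an unadjusted p under 0.05, with 2 positive changes and a median of +0.33, or +0.18 without control column 1. CDKN2A, which encodes p16 of the INK4 family and the unrelated ARF protein from shared exons that these values cannot separate, stood at 7.84, 7.50, 9.20 and 8.10 over the 4 APRIL libraries, against 6.69, 7.68, 7.51 and 7.74 over the 4 control libraries. APRIL column 2 lay below 3 control libraries, and the change was +0.76 ± 0.35 (adjusted p = 0.400), or +0.41 without APRIL column 3 and +0.17 without it and control column 1. CDKN1A, which encodes the p53 target p21, differed by +0.33 ± 0.19 (+0.18 without control column 1, +0.06 without it and APRIL column 3), and CDKN2B, which encodes the INK4 protein p15, by -0.18 ± 0.29 (-0.03 without APRIL column 3). CDKN2B had only 5 reads in APRIL column 3. With length and GC trends taken out these 3 changes were +0.31, +0.08 and -0.07. In control column 1 CDKN2A and CDKN1A were at their lowest, as were CDKN2C and CDKN2D.

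Of the pocket proteins and E2F factors, the direct targets of the G1 kinases and their partners, 16 of 17 were tested, 0 passed, and 3 had an unadjusted p under 0.05, all lower, where 5.69% of tested genes did. Changes were negative for 10 and positive for 6, with a median of -0.14, or -0.09 with the trends removed, -0.03 without APRIL column 3 and -0.07 without control column 1. LIN54, the DNA-binding subunit of the DREAM complex that represses cell cycle genes in resting cells, stood at 6.60, 6.73, 6.15 and 6.66 over the 4 APRIL libraries, against 7.25, 6.89, 6.87 and 6.77 over the 4 control libraries, without overlap. Its change was -0.41 ± 0.17 (adjusted p = 0.400). RBL2, the pocket protein p130 of the same complex, differed by -0.37 ± 0.16 and E2F3, an activating E2F, by -0.29 ± 0.13, also without overlap, and without APRIL column 3 RBL2 was at -0.24. All APRIL libraries lay below all control libraries for 4.19% of tested genes. With the trends removed the 3 changes were -0.17, -0.20 and -0.14, and without APRIL column 3 and control column 1 they were -0.18, -0.26 and -0.17. The unadjusted limma p of LIN54, RBL2 and E2F3 was 0.053, 0.083 and 0.075 without APRIL column 3. It was 0.106, 0.139 and 0.138 with the trends removed, and 0.051, 0.078 and 0.055 by voom. With each library centred on its median it was 0.030, 0.043 and 0.045.

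Of the genes for turnover of p27, cyclin D and cyclin E, 17 of 18 were tested, 0 passed and 1 had an unadjusted p under 0.05, with 6 positive changes, 11 negative ones and a median of -0.12, or -0.03 with the trends removed and -0.05 without APRIL column 3. That gene was USP2, a deubiquitinase known to stabilise cyclin D1, at 5.28, 4.97, 5.99 and 4.96 over the 4 APRIL libraries, against 4.02, 4.72, 4.90 and 4.97 over the 4 control libraries. APRIL column 3 was its highest and control column 1 its lowest library, and the change was +0.64 ± 0.27 (adjusted p = 0.400), or +0.41 without APRIL column 3 and +0.20 without both libraries. Depth was thin for USP2, with 21 reads in APRIL column 3 and 13 in control column 1. GSK3B, a kinase that marks cyclin D for degradation, differed by -0.27 ± 0.13, or -0.0076 with the trends removed. CDC34, a ubiquitin-conjugating enzyme, differed by +0.50 ± 0.28, or -0.03 with the trends removed and +0.20 without APRIL column 3.

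The E2F target genes of DNA synthesis, the output of the pathway, were all tested (28 of 28), 0 passed and 1 had an unadjusted p under 0.05. Changes were positive for 17 and negative for 11, with a median of +0.06, or -0.0092 with the trends removed, +0.0145 without APRIL column 3 and +0.03 without control column 1. TK1, thymidine kinase, stood at 4.19, 3.97, 5.11 and 4.36 over the 4 APRIL libraries, against 3.28, 3.93, 3.84 and 3.94 over the 4 control libraries. Its groups did not overlap and its change was +0.66 ± 0.26 (adjusted p = 0.400), or +0.23 with the trends removed, +0.42 without APRIL column 3 and +0.27 without APRIL column 3 and control column 1. All APRIL libraries lay above all control libraries for 3 of the 28 genes, TK1 and MCM5 among them, and below for 0. Over all tested genes these shares were 3.62% and 4.19%. The licensing factor CDT1 differed by +0.36 ± 0.16 and the helicase subunit MCM5 by +0.32 ± 0.15, and with the trends removed they were at +0.06 and +0.27. Without control column 1 MCM5 was at +0.20. Its lowest APRIL value, 5.404 in column 2, barely exceeded its highest control value, 5.398 in column 2.

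**Figure D4:**
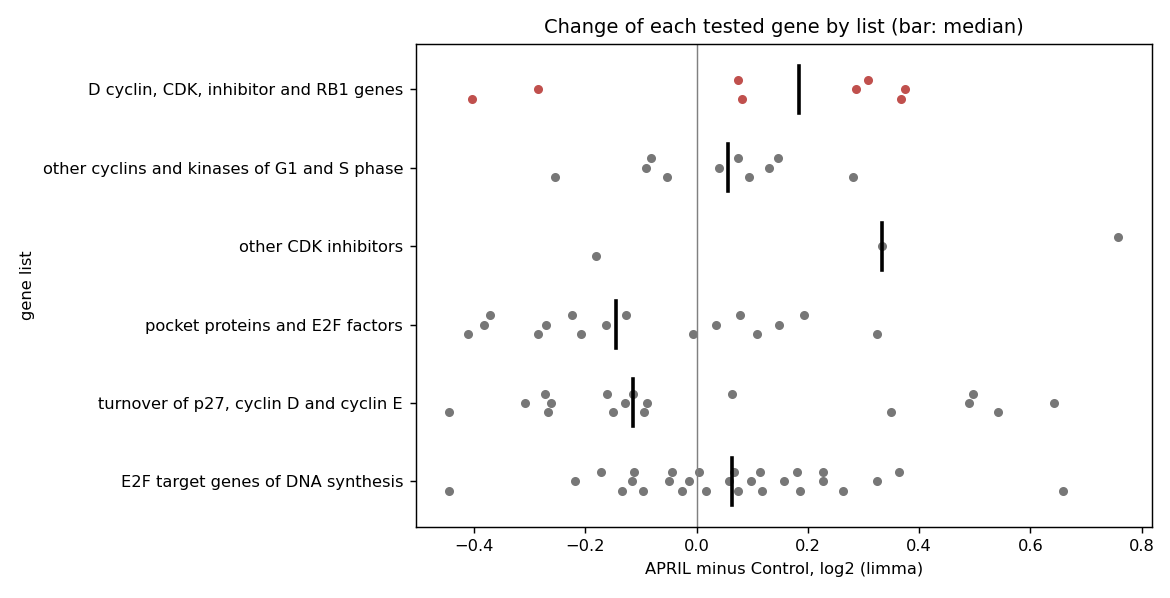
Change of each tested gene (x axis, APRIL minus control, log2, limma) for the 8 G1 regulators (red) and the 5 lists of the pathway (grey), with the median of each list as a bar. The medians lie between -0.14 (pocket proteins and E2F factors) and +0.33 (other CDK inhibitors, 3 genes), and that of the 8 regulators is +0.18, or +0.04 with the trends removed.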

How the data were processed

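RNA of 8 libraries was measured by sequencing after preparation with a TruSeq RNA v2 kit, one without strand marking. Per the file headers, the authors deposited log2 values per gene and library after TMM scaling of reads in TopHat alignment files, and for each gene a p-value and a linear fold of APRIL over control. Per the submitters' processing notes TopHat2 2.0.13, bcl2fastq and build hg19 were used; for the read counter, annotation and gene filter no source used here has an entry. All 8 per-library columns were used.

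Testing was by limma 3.58.1 in R 4.3.3 (intensity trend, robust, group only, two-sided, Benjamini-Hochberg over all genes, tested on simulated data), for genes whose linear value reached 1 in 4 or more libraries. Whole reads were recovered by finding, for each gene, 1 whole-number divisor that made all 8 values whole reads plus 0.5, with a chance expectation under 0.001. This worked for 10992 genes, and for 0 of 500 with the library constants moved. Length and GC came from GENCODE 29 (95.7% of genes), with trends fitted by splines per library. The genes named outside the 8 are, from each list, the 3 with the smallest p, any tested gene that overlaps 1 of the 8, and for the 3 regulators with the smallest p the 2 nearest genes. The genes and lists were chosen with earlier results of these data known. Python 3.11.15 was used for the rest. One marker gene and the mean level of its list are not reported here.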

Additional observations from a re-analysis of the deposited data

Results flagged for a closer look

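CDKN2D in control column 1 lay far from the other libraries of its group, at 6.09, by Dixon's test for a group of 4 (gap over range 0.887). It was 1 of 16 groups tested, where chance flags about 1 in 20. The value rests on 20 reads (exact Poisson 95% interval 12.2 to 30.9), and without that library the change of CDKN2D was +0.16.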

How the results depend on the processing

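In 17 alternatives 0 of the 8 regulators were called, with a smallest adjusted p of 0.234, and 128 of 136 values kept their direction. CCND3, CDK4, CDKN2C and RB1 kept it in all 17. Moving the filter, or leaving out the intensity trend and robust estimation, cannot alter a change, so those directions were fixed in advance. Median centring moves every change by the same small amount. The count of 128 therefore includes values that could not have turned. With library quality weights CDK2 was at -0.0145, CDKN1B at -0.0185 and CCNE1 at -0.0276, and 4 genes of the table were called, none of them a regulator. With the trend with length and GC removed CDK6 was at 0.0379, CDK2 at -0.0215, CDKN2D at -0.14, CDC37 at -0.0948, CCNE1 at -0.0375 and CDC34 at -0.0265. Without APRIL column 3 and control column 1 CDK2 was at -0.0578 and CCNE1 at -0.0415. Leaving out 1 library at a time gave 0.18 to 0.37 for CCND3, 0.21 to 0.46 for CDK4, -0.37 to -0.16 for CDK6, -0.0220 to 0.130 for CDK2, 0.24 to 0.45 for CDKN2C, 0.15 to 0.41 for CDKN2D, -0.0084 to 0.126 for CDKN1B, -0.65 to -0.21 for RB1 and -0.379 to 0.0519 for CDKN2B. The causes were not tested. No paired analysis was possible because the columns carry no replicate numbers. The 1344 genes at an unadjusted p under 0.05 became 505 without control column 1, 669 without APRIL column 4, 811 without control column 3, 2245 without APRIL column 2, 840 without APRIL column 3 and control column 1, and 890 with the trends removed. The 2 regulators at an unadjusted p under 0.05 became 0 with quality weights, with the trends removed and without the intensity trend and robust estimation. RB1 and CDKN2D rest on the fewest reads of the 8, at 7 and 17 in APRIL column 3.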
